A study of Mus musculus with 4 samples.

Results

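Transcripts of neural progenitors and neurons were measured in RNA of sorted microglia, the macrophages that live in brain tissue. The 48 genes were chosen by name, as radial glia, intermediate progenitor, cortical neuron and interneuron genes, of which 43 have a row in both deposited tables, out of 16655 genes shared by the tables. Sox2, Gsx2, Eomes, Slc17a7 and Reln have no row and were not analysed here. The cells were sorted by fluorescence from embryonic day 14 brain of C57BL/6 mice, either Arid1acKO, a conditional knockout of the chromatin remodelling subunit Arid1a, or Arid1afl/fl controls, whose Arid1a alleles are floxed. The source is labelled brain, and the protocol and design texts name cortex and telencephalon. The labels name no Cre line, no treatment and no number of embryos per sample. Values were analysed for 1 knockout library (replicate 2) and 2 control libraries (replicates 5 and 6). Knockout replicate 1 was not analysed here, so knockout values have no replicate error.

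In the embryonic telencephalon, radial glia divide along the ventricle and give rise to neurons directly or through intermediate progenitors. Proneural transcription factors of the Neurog and Neurod families drive excitatory projection neuron fate in the cortex, and Dlx factors do so for inhibitory interneurons of the ganglionic eminences. Microglia lie among these cells, touch them and engulf dying ones. Of the 43 genes, 7 are also known from myeloid cells or from dividing cells of any lineage: Vim, Hes1, Slc1a3, Sox4, Bcl11a, Stmn1 and Nes.

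The stretches before the start sites of 5 members are shown because they pair close relatives whose libraries ranked differently. Neurod6 was lowest and Neurod2 highest in the knockout library, and Elavl4 was lowest and Elavl3 highest. The knockout's exact Poisson interval overlapped that of control 6 for Neurod2 and those of both controls for Elavl3. Neurog2, which acts upstream of the Neurod genes, had no control reads. The sequences are RefSeq's, on GRCm38.p6, from 5′ to 3′ on the gene's strand, and capitals mark matches to CANNTG, the E-box letters that proneural factors bind, which read the same on both strands.
Neurod6 (chr6:55681264-55681513, minus strand): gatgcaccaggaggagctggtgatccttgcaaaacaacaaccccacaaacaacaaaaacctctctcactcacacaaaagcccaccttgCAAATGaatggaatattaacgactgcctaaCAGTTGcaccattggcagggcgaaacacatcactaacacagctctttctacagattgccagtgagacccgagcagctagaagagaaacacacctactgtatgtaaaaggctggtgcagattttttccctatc
Neurod2 (chr11:98329649-98329895, minus strand): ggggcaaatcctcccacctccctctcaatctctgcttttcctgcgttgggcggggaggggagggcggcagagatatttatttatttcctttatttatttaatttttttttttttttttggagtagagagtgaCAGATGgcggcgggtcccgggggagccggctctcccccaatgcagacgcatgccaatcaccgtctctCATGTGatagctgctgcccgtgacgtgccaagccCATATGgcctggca
Elavl4 (chr4:110351912-110352161, minus strand): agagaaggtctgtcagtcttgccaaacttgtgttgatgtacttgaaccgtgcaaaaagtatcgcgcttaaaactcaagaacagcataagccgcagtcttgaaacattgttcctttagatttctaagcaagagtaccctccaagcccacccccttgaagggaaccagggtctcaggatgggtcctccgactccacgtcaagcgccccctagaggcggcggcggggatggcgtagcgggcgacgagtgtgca
Elavl3 (chr9:22052024-22052273, minus strand): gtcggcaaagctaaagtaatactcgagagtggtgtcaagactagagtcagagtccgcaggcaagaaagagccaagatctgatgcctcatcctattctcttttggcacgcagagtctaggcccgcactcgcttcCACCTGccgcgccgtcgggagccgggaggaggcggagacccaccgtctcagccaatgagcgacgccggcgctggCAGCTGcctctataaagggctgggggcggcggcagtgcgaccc
Neurog2 (chr3:127632886-127633134, plus strand): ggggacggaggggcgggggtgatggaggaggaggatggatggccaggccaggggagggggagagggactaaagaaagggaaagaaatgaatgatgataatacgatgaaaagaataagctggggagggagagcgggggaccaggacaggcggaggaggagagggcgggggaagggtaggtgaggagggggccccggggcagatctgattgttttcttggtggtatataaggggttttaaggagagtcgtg
Neurod2 holds 3 matches, Neurod6 and Elavl3 hold 2 each, and Elavl4 and Neurog2 hold 0 in these windows. RefSeq windows were found for 33 members, and 16 of them begin within 50 bases of the deposited gene start. Of those 16, 9 hold a match in the 208 to 250 bases searched, or 56.2%, against 66.2% of all 32851 windows of 250 bases. A match is a run of letters and not a measured binding site.

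Where 3 values follow each other, they belong to the knockout library, to control 5 and to control 6 in that order, and a value set against a pair of others is the knockout's against control 5 and control 6. Depth was 17262261, 18608979 and 13774075 counted reads. Levels are given as CPM, reads scaled to the library total with edgeR's TMM factors. Control 5 stood apart from control 6 in its zeros, with 0 reads at 16.2% of the shared genes against 7.32%. Ratios over each control are thus given where they part. The knockout library had 0 reads at 1.05%, a share that the choice of genes lowers. Each shared gene had at least 2 reads over the knockout and either control together. A gene with 0 knockout reads is thus shared only if both controls have reads. Arid1a stood at 68.9 CPM with the knockout and at 109 and 130 CPM with the controls, in the direction of the label (log2 fold change -0.80, SE 0.41, adjusted p = 0.901), counted over the whole gene and not over a deleted part. All 12 microglia markers were read in every library, with a summed level of 18527, 25796 and 35203 CPM. The knockout was lowest in 11 of the 12, where it was lowest for 35.3% of all genes averaging at least 5 CPM. Of the 11, Siglech passed (58.3 against 918 and 1057 CPM, adjusted p = 0.0324).

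The 43 members took a small share of each library, and none of them passed the test. Their summed level, which leaves out other neural genes, was 1080, 1722 and 1306 CPM. The knockout library was thus the lowest, at 0.714 times the control mean of 1514 ± 294 CPM (SD, n = 2). Without Sox11 and Map1b, which were highest in control 5, the sums were 738 CPM against 798 and 876. Over the 36 members not known from myeloid or dividing cells, the sums were 683, 1353 and 936 CPM. Set against the summed microglia markers of the same library, the 43 members came to 5.83%, 6.68% and 3.71%, with the knockout between the controls. In bulk RNA, fewer neural cells or fragments and less neural RNA in each cannot be told apart, and the part of the lower microglia markers in these ratios was not tested.

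The edgeR quasi-likelihood test called 0 of the 43 members, beside 6 of all 15236 genes tested (0.0394%, of which 0.0131% higher and 0.0263% lower). At an unadjusted p under 0.05 there were 3 members, Vim higher and Elavl4 and Map1b lower, where 6.00% of all genes reached that p (2.46% higher and 3.54% lower). The DESeq2 Wald test also called 0 members (1.46% of all genes), with no adjusted p for 14 members and for 4726 of the 15236 genes. The knockout library was above both controls for 14 members and below both for 18, where 38.0% and 31.1% of all genes tested were above and below. The median log2 fold change of the members was -0.29, beside 0.05 for all genes. It was -0.14 over control 5 and -0.17 over control 6, beside 0.14 and 0.03 for all genes. Over the 40 members with reads in a control, the knockout was highest in 11, and the median was -0.40. Of all 14918 genes with reads in a control it was highest in 5467, with a median of 0.03.

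Members were also counted by abundance. Among the 25 members averaging at least 5 CPM, the knockout library was lowest in 15 and highest in 3, where 35.3% of all genes at that level were lowest and 35.8% highest. Their median log2 fold change was -0.57, beside -0.01 for all such genes. Among the 18 members under 5 CPM the knockout was highest in 11 and lowest in 3, where 41.8% and 23.7% of all such genes were, with a median of 0.62 beside 0.28. Of these, 3 (Emx1, Emx2 and Neurog2) entered the test through the knockout library alone, which fixed their rank. Among the other 15 the knockout was highest in 8 and lowest in 3, where 38.3% and 25.2% of such genes with reads in a control were, with a median of 0.46 beside 0.17. Genes found in 1 table only, which had at most 4 knockout reads, are not in the set tested.

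**Figure D1:**
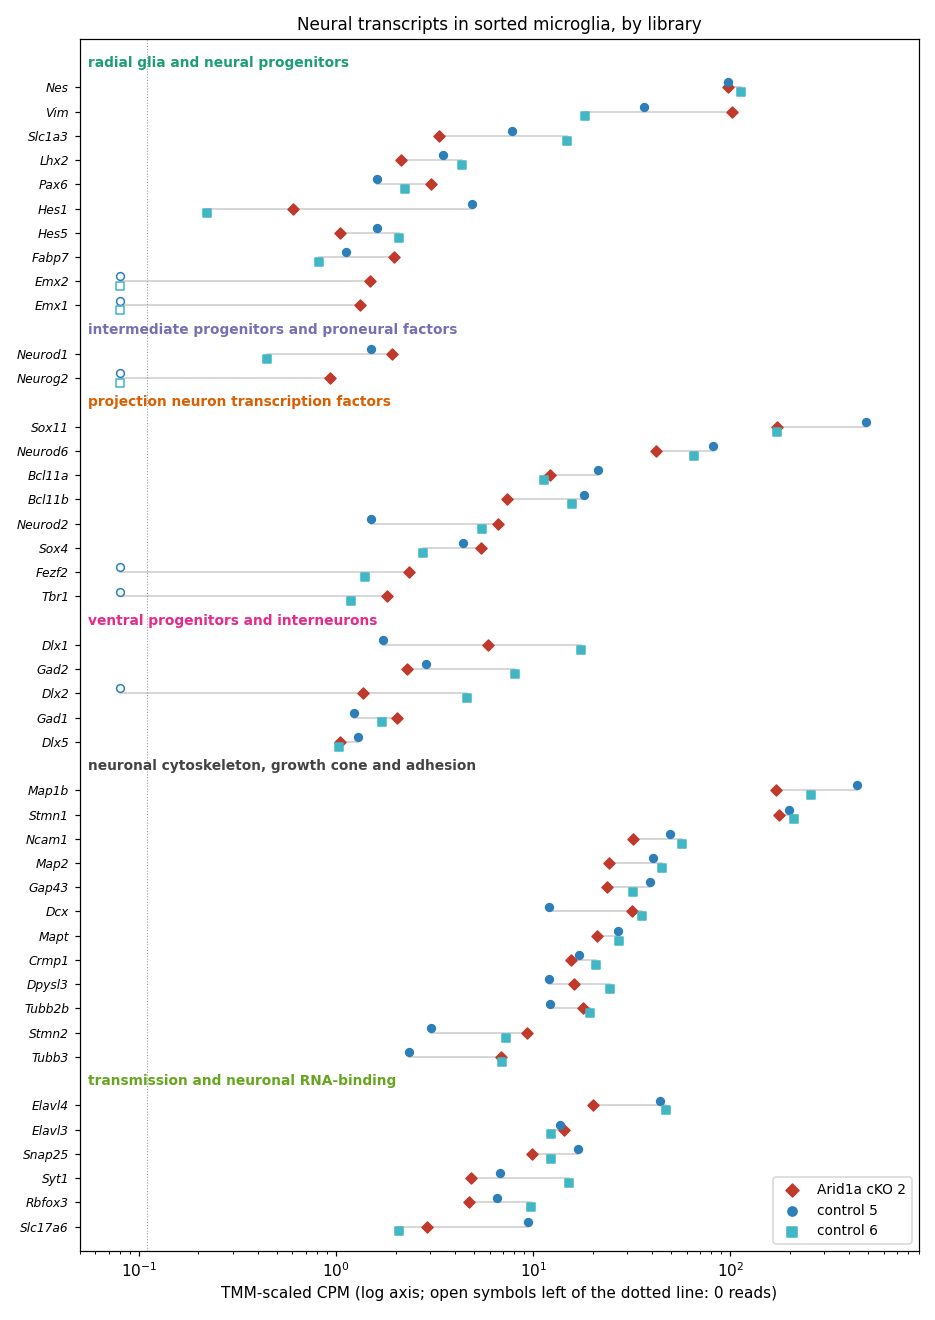
Level of each of the 43 members in each library, in TMM-scaled CPM on a log axis, 1 row per gene and 1 symbol per library, grouped by class; open symbols at the left edge stand for 0 reads. The knockout symbol lies at the left end of the row for 15 of the 25 members averaging at least 5 CPM, and the 2 controls are far apart for Sox11, Dlx1, Dlx2 and Hes1.

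Radial glia and progenitor genes had values on both sides of the controls, and Vim was the member with the smallest p of all. Vim encodes vimentin, an intermediate filament of radial glia and also of macrophages (chromosome 2, 13573927 to 13582826, plus strand, GRCm38). It had 1861, 654 and 248 reads, or 102, 36.5 and 18.4 CPM. The knockout library was the highest and the groups did not overlap, yet the controls differed 1.99-fold from each other. Its log2 fold change was 1.89 (SE 0.50), which did not pass (edgeR adjusted p = 0.436, and 0.0723 with DESeq2).

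Nes, the nestin filament gene of neural stem cells, had 97.0, 97.0 and 113 CPM. Its log2 fold change was -0.12 (SE 0.39), and the knockout and control 5 could not be told apart at this depth. Slc1a3, a glutamate transporter of radial glia and astrocytes, had 3.34 CPM against 7.76 and 14.9, the lowest in the knockout library (log2 fold change -1.76, SE 0.92, adjusted p = 0.916). Vim and Slc1a3, both carried by radial glia and both among the 7 shared genes, thus lay on opposite sides of the controls.

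The transcription factors of this class were scarce. Pax6, a regulator of dorsal radial glia, had 55, 29 and 30 reads. Lhx2, a patterning factor of the cortex, had 39, 62 and 59 reads. Hes5, a Notch target that holds progenitors undifferentiated, had 19, 29 and 28 reads, but a gene on the opposite strand covers 31.8% of its exon bases, and these counts do not separate strands. For all 3 genes the 2 controls lay within their exact Poisson intervals of each other.

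Hes1, a second Notch target that is also expressed in myeloid cells, had 11, 88 and 3 reads, so the controls differed 22.1-fold and the knockout lay between. Fabp7, the brain lipid-binding protein of radial glia, had 36, 20 and 11 reads. Emx1 and Emx2, homeobox genes of the dorsal telencephalon, had 24 and 27 reads in the knockout library and 0 in each control. Relative to the mean of the 3-read floors of the controls, Emx1 was 6.74-fold and Emx2 7.58-fold higher (adjusted p = 0.938 and 0.931). These ratios take the knockout's measured level without its counting error, so they are not lower bounds. Both entered the test through the knockout library alone, as did Neurog2 among the other members, and 2.09% of all genes tested had reads there and 0 in both controls (5.72% of those under 5 CPM had 0 in both controls).

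Summed over the 10 listed genes of the class, the knockout library had 214 CPM against 154 and 156 CPM in the controls. The exact Poisson intervals of the controls were apart for 4 of the 10, where they were apart for 62.3% of all genes tested. Without Vim the sums were 112, 117 and 138 CPM, with the knockout library the lowest. The median log2 fold change of the 10 genes was 0.27, and its sign rests on Emx1 and Emx2. For the other 8 genes it was -0.47, with the knockout highest in 3 and lowest in 3, beside 0.03 for all genes with reads in a control. Of those 14918 genes, the knockout was highest in 5467 and lowest in 4743.

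Genes of intermediate progenitors had few reads in any library. Neurog2, the proneural factor of dorsal progenitors, had 17 reads in the knockout library and 0 in either control. Its measured level was 4.77-fold over the mean of the 3-read control floors, without the knockout's counting error (adjusted p = 0.959). Neurod1, which follows it as cells leave the cycle, had 35, 27 and 6 reads, highest in the knockout library. Its fitted difference was within 1 SE of 0 (log2 fold change 0.96, SE 2.13).

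The summed level of projection neuron transcription factors differed more between the 2 controls than between the knockout and control 6. Sox11, a factor of newly born neurons (chromosome 12, 27334264 to 27342574, minus strand), had 171, 487 and 172 CPM. Control 5 stood alone, and the exact Poisson intervals of the knockout (165.4 to 177.5 CPM) and control 6 (165.1 to 179.1 CPM) overlapped, at a log2 fold change of -0.94 (SE 0.59), with a log2 ratio of -1.51 over control 5 and near 0 over control 6. Neurod6, a factor of postmitotic cortical neurons (chromosome 6, 55677822 to 55681263, minus strand), had 41.8 CPM against 81.7 and 65.1, lowest in the knockout library (log2 fold change -0.81, SE 0.44, adjusted p = 0.931). Bcl11b, which marks deep layer neurons that project below the cortex, had 7.39 CPM against 18.0 and 15.8. The knockout was lowest there too, and the 2 controls lay within counting error of each other (log2 fold change -1.19, SE 0.69, adjusted p = 0.945).

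Its relative Bcl11a, which myeloid and lymphoid cells also express, had 12.1 CPM against 21.4 and 11.3, between them. Neurod2, close in sequence and role to Neurod6, ranked the other way, with 6.62 CPM against 1.51 and 5.48 (log2 fold change 0.92, SE 1.19). Fezf2, a selector of corticospinal neurons, had 43, 0 and 19 reads, and Tbr1, a factor of early corticothalamic neurons, had 33, 0 and 16. Sox4, a partner of Sox11 found in many cell types, had 5.42, 4.41 and 2.74 CPM, and an antisense gene covers 54.6% of its exon bases.

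The knockout was thus the highest of the 3 in 4 of these 8 genes and the lowest in 3, and for Sox11 only by 171.4 against 172.0 CPM. Of all genes tested, it was highest for 38.0% and lowest for 31.1%. The summed level of the class was 249, 614 and 275 CPM. Without Sox11 it was 77.5, 127 and 103 CPM.

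The summed level of ventral progenitor and interneuron genes was highest in control 6 and lowest in control 5, with the knockout between. Dlx1, a homeobox gene of the ganglionic eminences, had 5.91, 1.73 and 17.6 CPM, a 10.1-fold gap between the controls. Its neighbour Dlx2 had 25, 0 and 62 reads. Relative to a floor of 3 reads in control 5, the measured knockout level of Dlx2 was 8.17-fold higher, and its log2 ratio over control 6 was -1.66.

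Gad2, a glutamate decarboxylase that makes the transmitter GABA, had 2.30 CPM against 2.85 and 8.08. Gad1, the other such enzyme, had 37, 22 and 23 reads, and Dlx5 had 19, 23 and 14. The summed level of the 5 genes was 12.7, 7.09 and 33.0 CPM, so the control spread covered the knockout value. The class median of -0.70 was 0.67 over control 5 and -1.55 over control 6.

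**Figure D2:**
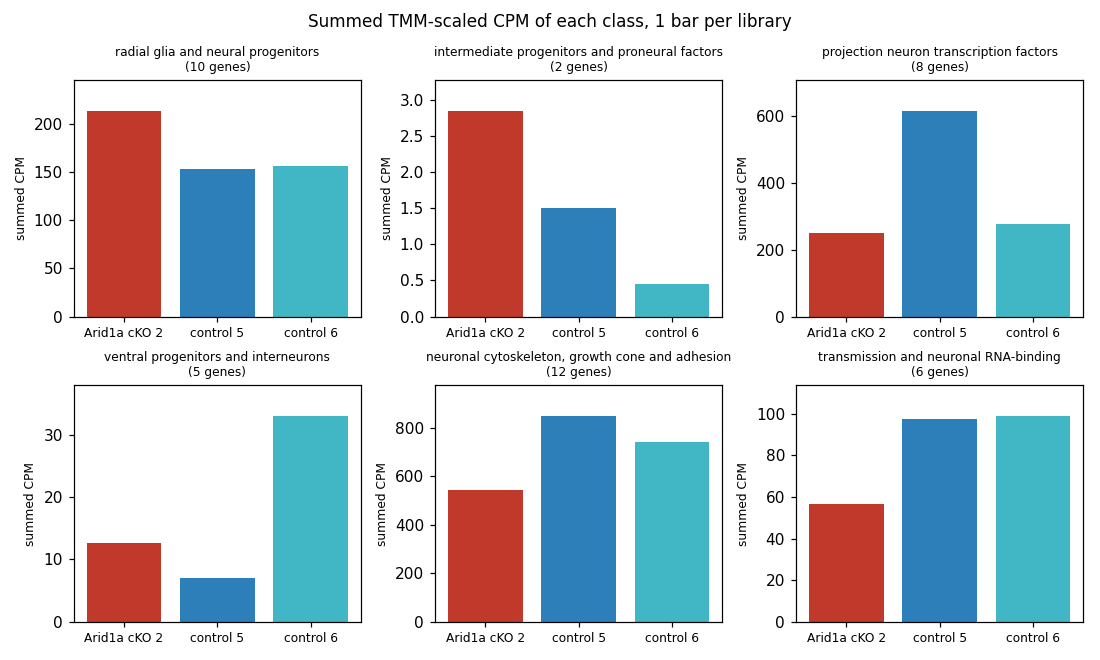
Summed TMM-scaled CPM of the listed genes of each class, 1 bar per library, each axis starting at 0 with its own scale. The control sums nearly coincide for radial glia genes (154 and 156 CPM) and for transmission genes (97.4 and 98.7 CPM), though single genes in both classes differed between the controls. The sums lie far apart for projection neuron factors (614 and 275) and interneuron genes (7.09 and 33.0).

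Genes of the neuronal cytoskeleton, growth cone and cell adhesion had the largest sum of the 6 classes in every library. The knockout library was lowest in 7 of 12, where it was lowest for 35.3% of all genes averaging at least 5 CPM. Map1b, a microtubule-associated protein of growing axons (chromosome 13, 99421464 to 99516602, minus strand), had 3116, 7826 and 3477 reads, or 171, 437 and 258 CPM. The knockout library was below both controls, which differed 1.70-fold (log2 fold change -1.03, SE 0.44, adjusted p = 0.821). Map2, its dendritic relative, had 24.3 CPM against 40.5 and 45.1, and the axonal Mapt, or tau, had 21.1 against 26.8 and 27.2. For both genes the controls lay within counting error of each other and the knockout library lay below them, at log2 fold changes of -0.82 (SE 0.49) and -0.36 (SE 0.54).

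Gap43, a growth cone protein, had 23.8 CPM against 38.9 and 32.0. Ncam1, the neural cell adhesion molecule, had 32.1 against 49.2 and 56.8 CPM, and Crmp1, a mediator of semaphorin signals, had 15.5 against 17.0 and 20.8. The knockout was lowest in each of the 3, at log2 fold changes of -0.58 (SE 0.51), -0.72 (SE 0.46) and -0.29 (SE 0.61), and none passed. Stmn1, stathmin, destabilises microtubules and is abundant in dividing cells of many lineages (chromosome 4, 134468320 to 134473843, plus strand). It had 176 CPM against 197 and 209, a log2 fold change of -0.20 (SE 0.36).

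The other 5 genes of this class placed control 5 lowest. Dcx, doublecortin of migrating neurons, had 31.6, 12.1 and 35.6 CPM. Tubb3, the neuronal beta-tubulin, had 6.84, 2.35 and 6.97 CPM, and Tubb2b, another beta-tubulin of young neurons, had 18.0, 12.1 and 19.4. Stmn2, the neuron-restricted stathmin, had 9.25, 3.02 and 7.26 CPM, the only one of the 12 that was highest in the knockout library. Dpysl3, a relative of Crmp1, had 16.04, 11.95 and 24.6 CPM.

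The pan-neuronal markers Dcx, Tubb3, Stmn2 and Elavl3 had log2 ratios of 1.38, 1.497, 1.58 and 0.06 over control 5 and -0.17, -0.03, 0.34 and 0.22 over control 6. Tubb2b and its neighbour Tubb2a are nearly identical, so their counts are uncertain. The class summed to 546 CPM against 849 and 742, or 375 against 411 and 485 without Map1b.

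Genes of synaptic transmission and neuronal RNA-binding had the lowest median of the 6 classes and controls with nearly equal sums. The 6 listed genes summed to 56.6 CPM against 97.4 and 98.7, or 0.577 times the control mean of 98.1 ± 0.911 CPM (SD, n = 2). Single genes did not match so closely. The exact Poisson intervals of the controls were apart for 4 of the 6, where they were for 62.3% of all genes tested. Slc17a6 had 9.38 CPM in control 5 and 2.08 in control 6, and Syt1 differed the other way, with 6.76 and 15.1. The knockout was lowest in 4 of the 6, where it was lowest for 31.1% of all genes tested. The median log2 fold change was -0.88, beside 0.05 for all genes. It was -0.62 over control 5 and -0.67 over control 6, beside 0.14 and 0.03 for all genes. Elavl4, the RNA-binding protein HuD that stabilises neuronal messages (chromosome 4, 110203722 to 110351909, minus strand), made up most of the gap. It had 366, 791 and 639 reads, or 20.0, 44.2 and 47.4 CPM. The controls lay within counting error of each other and the knockout library lay below both, at a log2 fold change of -1.19 (SE 0.50), which did not pass (adjusted p = 0.820).

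Elavl3, or HuC, differs from it in these libraries, with 14.3, 13.7 and 12.2 CPM. The knockout was highest there by less than 1 SE (log2 fold change 0.14, SE 0.65). Snap25, a SNARE protein of vesicle fusion, had 9.80 CPM against 16.8 and 12.2. Syt1, the calcium sensor of fast release, had 4.82 against 6.76 and 15.1, and Rbfox3, the splicing factor known as NeuN, had 4.71 against 6.54 and 9.71. All 3 were lowest in the knockout library, at log2 fold changes of -0.57 (SE 0.69), -1.18 (SE 0.90) and -0.79 (SE 0.93), and none passed. Slc17a6, the vesicular glutamate transporter VGLUT2, had 53, 168 and 28 reads, and so lay between the controls.

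**Figure D3:**
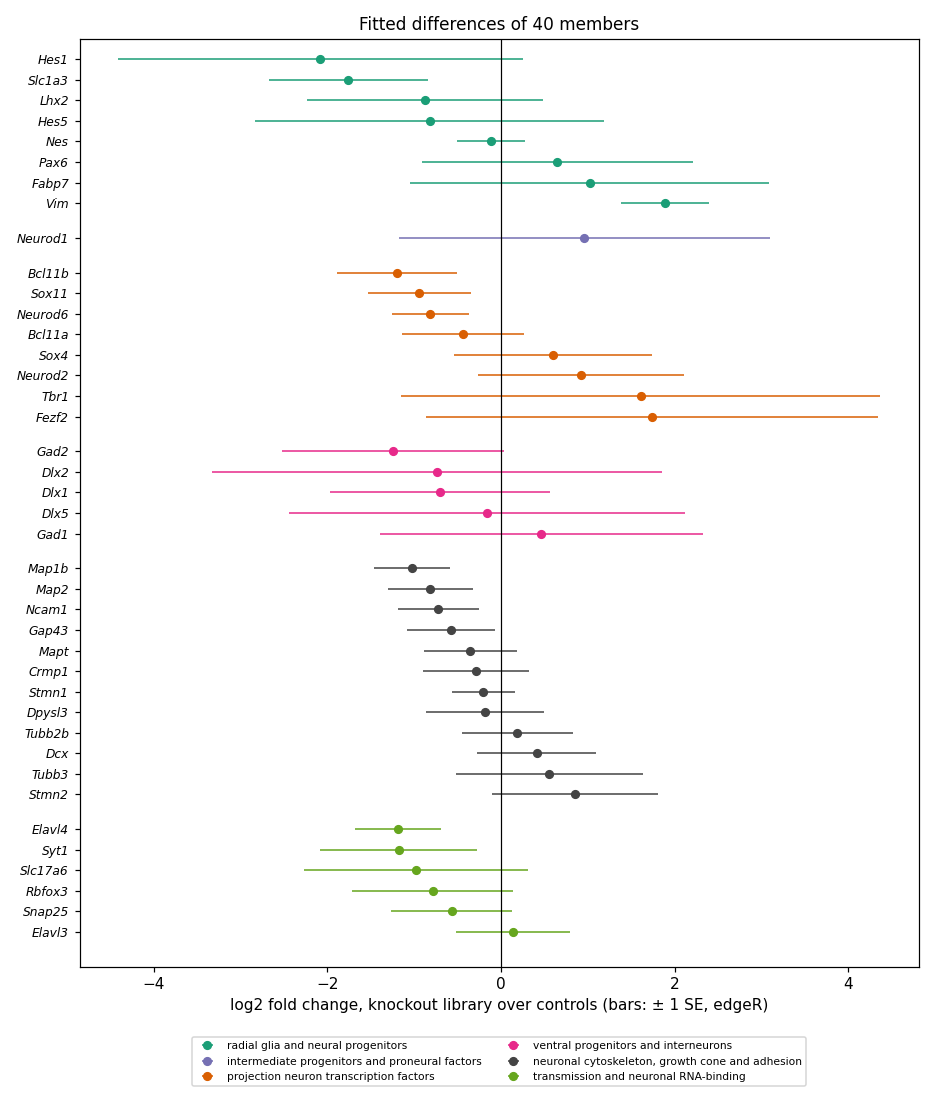
Fitted log2 fold change of the knockout library over the controls for 40 members, coloured by class, with bars of 1 SE from the edgeR fit; the 3 members with 0 reads in both controls (Emx1, Emx2 and Neurog2) are left out. Vim at 1.89, Map1b at -1.03 and Elavl4 at -1.19 lie farthest from 0 in units of their SE, and none passed the adjusted threshold of 0.05.

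Per kilobase of exon, a scale on which genes can be compared, Stmn1 was the most abundant member in every library, at 91.8, 103 and 109 CPM per kilobase. Its exact Poisson interval in each library lay above those of every other member. Sox11, Neurod6, Gap43, Map1b, Nes and Vim followed by mean level, at 33.3, 29.2, 20.7, 18.2, 15.96 and 11.02 CPM per kilobase. Vim had rank 2, 8 and 10. Tubb3 had rank 12 by its mean of 2.88 CPM per kilobase, and Dcx rank 16 at 2.09.

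Map1b, Sox11, Stmn1, Nes and Neurod6 together took 60.8%, 75.5% and 62.6% of the members' summed CPM. Sox11 alone took 15.9%, 28.3% and 13.2%.

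The proportions among some neural genes were not constant between libraries. The pairs named here were picked without a planned rule. Others computed also varied, such as Sox11 reads per Tubb3 read, at 25.05, 207.5 and 24.69. Map1b reads per Map2 read were 7.02, 10.8 and 5.71, and Nes reads per Pax6 read were 32.2, 59.9 and 50.9. There were 5.42 Sox11 reads per Dcx read in the knockout library and 4.82 in control 6, but 40.3 in control 5. Neurod6 reads outnumbered Neurod2 reads 6.31-fold, 54.1-fold and 11.9-fold. Slc17a6 reads, of excitatory neurons, stood to Gad2 reads, of inhibitory ones, at 1.26, 3.29 and 0.257. Elavl4 and Elavl3 went the other way, with similar ratios in the controls (3.22 and 3.87) and a lower one in the knockout library (1.40). Vim reads per Nes read were 1.05, 0.377 and 0.162, highest in the knockout library.

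The 2 controls differed beyond counting error for many members. For 26 of the 43, their exact Poisson intervals did not overlap, where 62.3% of all genes tested showed the same. The knockout library lay between the controls or tied with 1 of them for 11 members, where 30.9% of all genes did. Control 5 was the lowest library for 13 members, where it was lowest for 40.5% of all genes, and control 6 was the highest for 19, where it was highest for 30.3%.

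Control 5 had 0 reads for Emx1, Emx2, Neurog2, Tbr1, Fezf2 and Dlx2, 6 members that are all transcription factors of cortical or ventral patterning. All 6 were among the 18 members under a mean of 5 CPM, where 30.8% of all such genes had 0 reads in control 5. Their transcripts ranged from 51.9% to 66.8% in GC content, with a median of 55.9%, against a median of 49.9% for the 37 members that had reads there. For all genes under 5 CPM the medians were 49.9% and 49.2%.

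Across the 43 members, which share the same 3 libraries, the log2 ratio over control 5 had a Spearman rho of 0.45 with transcript GC, and that over control 6 had 0.09. Across all genes with a GC value the rhos were 0.25 and 0.14. With exon length the members' rhos were -0.29 and -0.31. GC content thus moved with the ratio over control 5, and its part in the differences was not tested. With each library's trend on GC removed, an alternative chosen after seeing the data, 0 members were called and the members' median was -0.61 beside -0.20 for all genes.

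**Figure D4:**
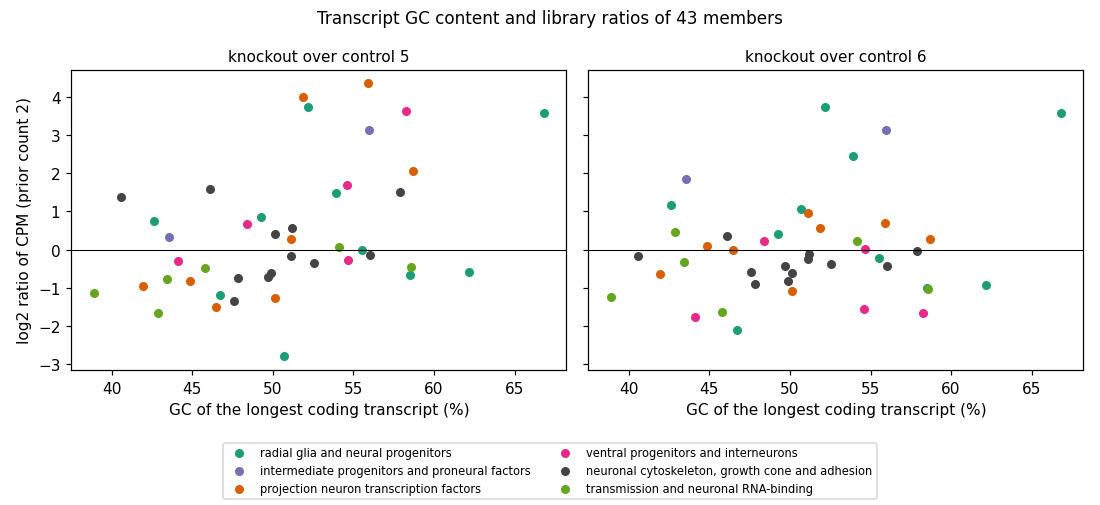
Log2 ratio of the knockout library over control 5 (left) and over control 6 (right) against the GC content of each member's longest coding transcript, 1 point per gene and coloured by class. Points rise with GC on the left (Spearman rho 0.45) and hardly on the right (0.09), and both panels share the knockout library.

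A second list of 64 neural genes that are not among the members also had unlike controls. Of these, 51 were in both tables and 48 were tested, and 0 passed in either direction, with 0 higher and 2 lower at an unadjusted p under 0.05. The knockout was highest in 10 and lowest in 15, where 38.0% and 31.1% of all genes were, and control 5 was the lowest library in 25, where it was lowest for 40.5% of all genes. Their summed level was 701, 611 and 741 CPM, with the knockout between the controls. As a share of the summed microglia markers it was 3.78%, 2.37% and 2.10%, with the knockout above both controls, unlike the share of the 43 members. The median log2 fold change was -0.10, or 0.24 over control 5 and -0.37 over control 6.

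The abundant members of that list were Tuba1a, an alpha-tubulin of young neurons, at 261, 159 and 263 CPM, Marcksl1 at 90.4, 108 and 68.1, and the imprinted Nnat at 47.1, 22.7 and 49.8. None of these 3 had the knockout outside the controls. The genes named next, from those with the smallest p at 5 CPM or more, were all lowest in the knockout library. Myt1l, a repressor of non-neuronal genes in neurons, had 2.96 CPM against 11.7 and 12.8 (log2 fold change -2.05, SE 0.86, adjusted p = 0.82), and Ebf1 had 2.41 against 8.94 and 8.003. Pou3f3 had 4.05 against 16.2 and 5.26, Rtn1 had 7.34 against 14.8 and 11.9, and Meis2 had 10.4 against 16.8 and 17.0. Of the genes under 5 CPM, the pair with the smallest p lay on opposite sides, and both are named after their values were seen. Ebf3 had 0 reads against 54 and 22, and Igfbpl1 had 144 reads against 23 and 32 (log2 fold change 2.11, SE 1.18, adjusted p = 0.934).

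Markers of other brain and blood cells were also low, in lists of which some genes overlap with the members. The pan-neuronal markers Tubb3, Dcx, Stmn2 and Elavl3 summed to 62.0, 31.2 and 62.1 CPM. The 3 projection neuron markers summed to 50.2, 83.2 and 71.7 CPM. The 4 listed radial glia markers, Pax6, Fabp7, Hes5 and Emx2, summed to 7.5, 4.36 and 5.11. Endothelial markers summed to 26.5, 39.3 and 36.5 CPM, erythroid markers to 40.8, 33.5 and 47.7, and neutrophil markers to 86.3, 107 and 9.26. Astrocyte markers summed to 13.1, 24.9 and 13.9 CPM over 2 listed genes, mural markers to 13.5, 11.5 and 14.9 over 3, and oligodendrocyte lineage markers to 1.31, 1.01 and 4.08 over 3. Aldh1l1, an astrocyte marker, had 79 reads in the knockout library and 0 in both controls. Gja1, the other listed astrocyte gene, was lowest in the knockout (8.81 CPM against 24.9 and 13.9). Of the endothelial markers, Cldn5 (126, 32 and 0 reads) and Kdr (261, 131 and 88) were highest in the knockout. Pecam1 (71, 367 and 368 reads) and Cdh5 (12, 35 and 33) were lowest there, and Flt1 (14, 139 and 4) lay between the controls. None of the 4 fibroblast markers has a row. The neuronal lists thus did not order the libraries alike, and whether other cells contributed to the members' values was not tested.

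The authors' deposited table with control 5 marked 12 of the 43 members as significant, 11 higher and 1 lower, where it marked 29.5% of all its genes (21.7% higher and 7.75% lower). The authors' deposited table with control 6 marked 8, 5 higher and 3 lower, where it marked 18.7% (10.1% higher and 8.60% lower). The members' shares, 27.9% and 18.6%, were near those of all genes. Both deposited tables marked Emx1, Emx2, Neurog2 and Vim as higher, and Dlx2 as higher over control 5 and lower than control 6. That is 5 of the 43 members, 4 of them in the same direction. Of all 16655 genes in both tables, 1900 were marked in both, 1758 of them in the same direction. Emx1, Emx2 and Neurog2 had 0 reads in both controls. The knockout library is shared by the tables, and each sets 1 library against 1.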

How the data were processed

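RNA-seq counts were analysed for 3 libraries of the 4 that the labels list. Bowtie2 2.2.3, TopHat2 2.0.12, HTSeq 0.6.0 and the build mm9 are named in the submitters' processing notes, though deposited gene positions match GRCm38, being identical to GENCODE M21 for 89.9% of the 18480 gene IDs found there. The authors deposited raw read counts, CPM (with 0 counts set to 0.5 reads), a ratio as fold change, its log2 value and p-values, in 2 tables, each of the knockout library beside 1 control. How the authors' p-values were computed is not given in the sources used here. A kit that does not mark strand is named in the labels.

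Counts of the 16655 genes in both tables were fitted with edgeR 4.0.16 in R 4.3.3 (filterByExpr, TMM factors of 1.059, 0.963 and 0.981, quasi-likelihood F test, two-sided, Benjamini-Hochberg over 15236 genes, threshold 0.05). With 1 residual degree of freedom, from the pair of controls, the knockout is taken to vary as they do. edgeR moderated each gene's spread with that of other genes, so each p also rests on how the controls differed at other genes. No label says that replicates are separate animals, and p-values measure only this spread among libraries, which may be technical. The common dispersion was 0.438. SE is the fold change divided by the root of F. Log2 ratios between libraries had a prior count of 2. Intervals are exact Poisson at 95%, floors are 3 reads per library, and both cover counting error only. A read was worth 0.0547, 0.0559 and 0.0741 CPM (knockout, control 5, control 6). Exon lengths and transcript GC (longest coding transcript) are from GENCODE M21. The scripts were tested on simulated data. Alternatives were DESeq2 1.42.0 size factors and Wald test, upper-quartile factors, other filters, genes in either table with missing counts set to 0, and each control left out.

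All 48 members are named. Members averaging at least 5 CPM have every library value, and the rule for further neural genes takes the 6 with the smallest p and the 3 most abundant at that level, of which 1 is not reported here. The members and lists were chosen with earlier results of these data known.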

Additional observations from a re-analysis of the deposited data

How the results depend on the processing

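No member was called under any of the 7 alternatives fitted by edgeR or DESeq2, and their smallest adjusted p ranged from 0.0723 (DESeq2 Wald test) to 0.875 (GC offset). The count of genes called over all genes was 6, and 0 under size factors of DESeq2, under upper-quartile scaling and without the low-count filter (895, 818 and 948 at an unadjusted p under 0.05), 10 with genes in either table, 19 with the GC offset, 44 with a filter of 5 CPM in 2 libraries and 223 with the DESeq2 Wald test. The members' median of -0.29 became -0.50 under the 5 CPM filter, where the knockout was highest in 4 of 26 members. It was -0.57 for members averaging at least 5 CPM (highest in 3), -0.32 without the 7 shared genes, -0.40 without the 3 members with 0 reads in both controls and -0.61 with the GC offset, and from -0.17 to -0.14 when either control was left out. The summed ratio of knockout to control mean was 0.714 for all members and 0.882 without Sox11 and Map1b. For the cytoskeletal class without Map1b it was 0.837. For radial glia it was 1.38, or 1.5 with library totals and 0.877 without Vim. For transmission genes it was 0.577, or 0.629 with library totals. With the GC offset the fitted sign changed for Tubb2b (-0.04) and Elavl3 (-0.29), while the median of all genes moved from 0.05 to -0.20. No member's sign changed in the other 6 fits, though 11 of 43 lay on opposite sides of 0 over control 5 and control 6. Map1b missed an unadjusted p of 0.05 with either other scaling, and Elavl4 with the GC offset. The GC offset, the library totals and the subsets of members were chosen after seeing the data. No paired analysis was possible because the knockout and control libraries share no replicate number. With 1 knockout library, leaving out 1 control leaves a ratio with no test. The genes called depended on the factors and the filter, and the cause was not tested.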
